A study of Mus musculus with 12 samples.

Results

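Nat10 encodes the RNA acetyltransferase NAT10, and Thumpd1 encodes THUMPD1, the tRNA-binding adaptor that NAT10 needs for its work on tRNA. Both genes were taken by their symbols from the deposited table of gene counts, as 2 of its 55586 genes, and both were among the 13474 genes kept by the filter on low counts. RNA was sequenced from mouse peritoneal macrophages, the phagocytes of the abdominal cavity, in 12 libraries. The series concerns reduced RNA acetylation in macrophages and liver cancer. The 4 groups of 3 libraries were untreated control cells, cells given interferon gamma (IFN-γ, a cytokine that activates macrophages), cells given Remodelin hydrobromide (a small-molecule inhibitor of NAT10), and cells given Remodelin hydrobromide and then IFN-γ. All groups were kept in serum-containing medium, and the labels state no dose, time, strain or age.

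NAT10 transfers an acetyl group from acetyl-CoA to cytidine in RNA, which gives N4-acetylcytidine (ac4C). The mark lies on the small-subunit ribosomal RNA and, with THUMPD1 as the adaptor, on serine and leucine tRNAs, and it has also been described on mRNA. The small nucleolar RNA encoded by Snord13 guides NAT10 to ribosomal RNA. Remodelin is described as acting on the NAT10 protein, so the question for these 2 genes is whether their mRNA levels differed when the inhibitor, IFN-γ or both were present. The libraries measure RNA levels, and neither ac4C nor NAT10 activity was measured in them.

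Nat10 (ENSMUSG00000027185) lies on the minus strand of chromosome 2 at 103551601 to 103591615, and Thumpd1 (ENSMUSG00000030942) on the minus strand of chromosome 7 at 119314316 to 119320021. These coordinates are those of the deposited table, which names no genome build. Neither gene overlapped another gene of that table, although the nearest gene upstream of Thumpd1, Gm44866, lay 12 bases away. The nearest upstream neighbour of Nat10 was Caprin1, at 1670 bases. The strand setting of the counting is not given, so reads of overlapping genes on opposite strands could not be told apart.

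The counted models of the 2 genes differ in how far they go beyond the mRNA. The deposited gene length of Nat10 was 7199 bases, which equals the union of exons over its 14 transcripts in GENCODE M21, of which 11 are annotated as retained-intron transcripts and 3 as protein-coding. Its principal mRNA has 29 exons and 3879 bases, so the counted length was 1.86 times that of the mRNA. For Thumpd1 the deposited length was 3004 bases against a principal mRNA of 2689 bases in 4 exons. Per-length values of Nat10 therefore depend on which of these lengths is used.

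The Nat10 promoter is shown because its RefSeq start coincides with the start of the GENCODE M21 model, whose union of exons has the counted length. Its position is given on GRCm38.p6 and does not match the deposited coordinates above, whose build is not named. The stretch is the 250 bases upstream of the RefSeq start, GRCm38.p6 chr2:103761271-103761520, minus strand, read 5′ to 3′. Capitals mark ATGGCGGC, a YY1-type motif starting at position -68 from the start, and TACGTCA, a CRE-like motif starting at -16. Both motifs were picked after the sequence was read, and they do not overlap each other. Searched on both strands, they occurred in 1.03% and 1.08% of 32851 RefSeq promoters of the same length.

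Nat10: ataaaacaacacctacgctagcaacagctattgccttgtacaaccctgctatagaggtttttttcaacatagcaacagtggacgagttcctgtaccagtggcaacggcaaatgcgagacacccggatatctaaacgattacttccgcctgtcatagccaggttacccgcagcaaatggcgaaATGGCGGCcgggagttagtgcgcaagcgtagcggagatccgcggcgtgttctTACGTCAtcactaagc

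The stretch had a GC content of 50.8%, against a median of 52.4% over all promoters. It held 18 CpG dinucleotides, where the median promoter held 6 and 78.3% held fewer. No match was found for the ATF4-CHOP letters TGATGNAA (3.45% of promoters), the E-box CACGTG (6.02%) or the full CRE TGACGTCA (1.55%). A match is a description of letters and not of binding, and a missing match says only that the letters are not in this window.

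Libraries held 15917454 to 19418665 counts, with 17353 to 18175 genes detected in each. The labelled cell type was checked on 8 macrophage markers, all of them expressed, with summed levels of 15067 to 25335.6 CPM (read counts scaled by the TMM-adjusted library total). Of 4 markers of large resident peritoneal macrophages, Gata6 stood at 9.54 to 19.5 CPM, Icam2 at 3.93 to 6.90 and Prg4 at 0.271 to 1.28, and Timd4 was at or near 0 (at most 0.116 CPM). The 4 T cell markers summed to at most 1.36 CPM. Marker sums of other cells did not overlap between groups with and without Remodelin for mesothelial cells, neutrophils and B cells. The share of all genes without such overlap is not given here. The 7 mesothelial markers summed to 83.5 to 109 CPM in control and 78.9 to 86.3 with IFN-γ, but to 44.3 to 51.3 with Remodelin and 44.1 to 56.4 with both. The 5 neutrophil markers summed to 46.7 to 55.1, 45.8 to 52.0, 28.0 to 32.2 and 31.4 to 33.7 CPM in the same order. Only 3 of them passed the count filter. Ly6g was at or near 0 and S100a9 at 0.114 to 0.694 CPM, so the sums rest on S100a8, Mmp8 and Mmp9. Whether neutrophils were present was not tested. The 4 B cell markers were low, at 5.42 to 6.08, 6.62 to 6.76, 4.62 to 5.13 and 4.75 to 5.07 CPM. Fibroblast markers, 4 in all, summed to 265.4 to 616.8 CPM with overlapping groups. In bulk RNA, fewer cells of a type and less RNA per cell cannot be told apart. The libraries also differed in how their genes deviated with GC content, with Spearman correlations from -0.69 in Remodelin with IFN-γ library 1 to 0.55 in control library 3.

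Nat10 was expressed at a moderate level in every library, and its level differed little between groups. Control libraries 1 to 3 held 363, 367 and 295 Nat10 counts, or 18.4, 19.9 and 16.0 CPM. The IFN-γ libraries held 17.5, 15.5 and 15.2 CPM from 309, 274 and 266 counts. All 3 of these lay at the lower part of the control range or under it, and library 1 overlapped the controls.

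With Remodelin alone Nat10 stood at 16.5, 22.5 and 14.2 CPM from 257, 390 and 246 counts. With Remodelin and IFN-γ it stood at 11.6, 19.4 and 16.7 CPM from 185, 372 and 286 counts. The highest and the lowest Nat10 levels of all 12 libraries thus both came from cells given the inhibitor, and the spread within those groups was wider than in the others. Group means were 18.1 ± 1.97 CPM in control, 17.7 ± 4.28 with Remodelin, 16.1 ± 1.24 with IFN-γ and 15.9 ± 3.99 with both (SD, n = 3 each). Each neighbouring pair in this order overlapped in its libraries.

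Thumpd1 counts were 494, 324 and 421 in control, or 25.01, 17.6 and 22.9 CPM. With IFN-γ the 3 libraries stood at 23.6, 21.9 and 28.8 CPM from 417, 387 and 503 counts. With Remodelin alone they stood at 17.4, 23.5 and 27.1 CPM from 271, 408 and 469 counts. These 3 groups overlapped one another, and the lowest level, in Remodelin library 1, lay just under that of control library 2.

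Cells given Remodelin and IFN-γ had the highest Thumpd1 levels, at 34.3, 27.8 and 28.5 CPM from 550, 532 and 490 counts. All 3 libraries lay above every control library and every Remodelin library, and 2 of them lay below the highest IFN-γ library. Group means in descending order were 30.2 ± 3.60 CPM with both agents, 24.8 ± 3.60 with IFN-γ, 22.7 ± 4.93 with Remodelin and 21.8 ± 3.82 in control (SD, n = 3 each). Each neighbouring pair in this order overlapped. Across all genes, 15.4% were non-overlapping and higher with both agents than in control, and 5.99% were so against Remodelin alone.

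**Figure D1:**
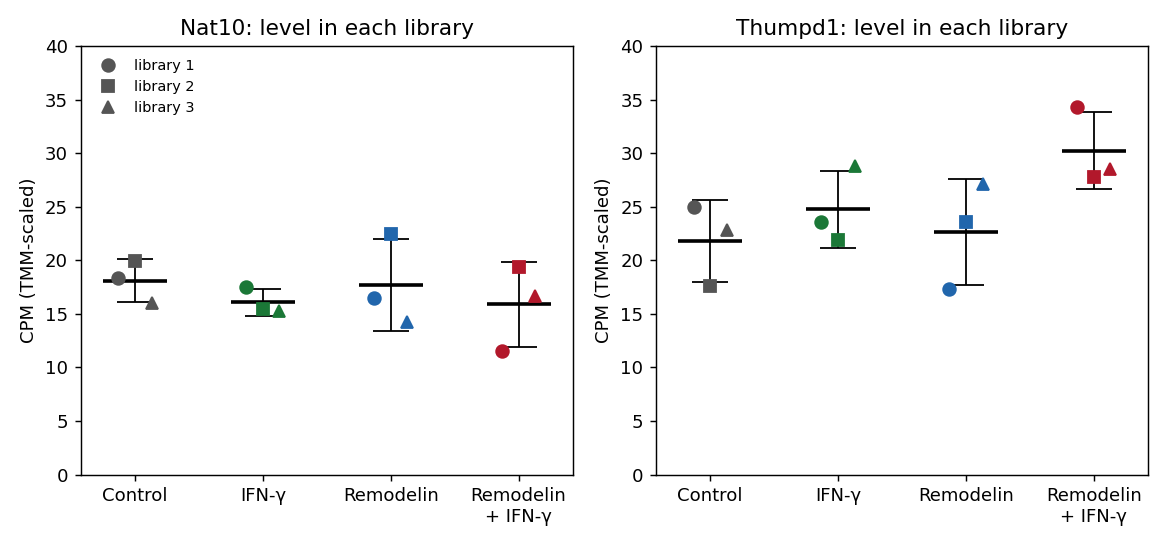
Level of Nat10 (left) and Thumpd1 (right) in each of the 12 libraries, in TMM-scaled CPM on a linear axis from 0. Points are libraries, horizontal bars are group means and whiskers are 1 SD (n = 3); Thumpd1 with Remodelin and IFN-γ lies at 27.8 to 34.3 CPM, above all control libraries, and Nat10 overlaps in all groups.

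Relative to other genes, Nat10 had a mean of 16.9 CPM over the 12 libraries, at the 55.66 percentile of the 13474 genes, and Thumpd1 had 24.9 CPM, at the 63.94 percentile. The authors' deposited FPKM values, which divide by gene length, ranged from 1.59 to 3.11 for Nat10 and from 5.80 to 11.3 for Thumpd1. Their FPKM means placed Nat10 at the 45.06 percentile and Thumpd1 at the 69.88 percentile. Both genes varied within groups about as much as others of their level. The within-group SD of log2 CPM was 0.27 for Nat10 and 0.25 for Thumpd1, where the 500 genes closest in level had medians of 0.24 and 0.22.

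Per length, Thumpd1 RNA was more abundant than Nat10 RNA in all 12 libraries. The ratio of Thumpd1 to Nat10 FPKM ran from 2.12 in control library 2 to 7.12 in Remodelin with IFN-γ library 1. With the principal mRNA lengths in place of the deposited lengths the ratio ran from 1.27 to 4.29, so the order of the 2 genes did not depend on that choice. The ratio of their counts, which does not depend on length between libraries, averaged 1.22 ± 0.297 in control, 1.55 ± 0.296 with IFN-γ, 1.34 ± 0.494 with Remodelin and 2.04 ± 0.821 with both (SD, n = 3 each). Its highest value, 2.97, came from Remodelin with IFN-γ library 1, which held the lowest Nat10 and the highest Thumpd1 level of the series. With both agents the count ratio was 1.43 to 2.97, narrowly above the control range of 0.883 to 1.427, and it overlapped the ranges of either agent alone. The ratio was not tested.

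In edgeR's quasi-likelihood fit over all 12 libraries, neither gene passed an adjusted p of 0.05 in any of 7 comparisons. At an unadjusted p under 0.05, Nat10 passed in 0 of the 7 and Thumpd1 in 2. Those 2 were both agents against control and against Remodelin alone, where 29.8% and 7.74% of all genes passed. DESeq2 and limma-voom also called neither gene in any comparison. Since no label says whether a group's libraries were separate cultures or animals, the p-values cover only library-to-library spread, part of which may be technical. The comparisons share groups and are not independent of one another.

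IFN-γ against control asked whether the cytokine alone went with other levels of either mRNA. Nat10 differed by -0.17 ± 0.21 on the log2 scale (SE) with an edgeR adjusted p of 0.938, and its 95% interval ran from -0.61 to 0.27. For Thumpd1 the difference was 0.18 ± 0.19 with an edgeR adjusted p of 0.929. With 0 of 2 genes called, the background was 0.0148% of all genes, or 2 genes, so few genes of any kind passed in this comparison.

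Remodelin against control asked whether the inhibitor went with a change of its own target's mRNA. Nat10 differed by -0.03 ± 0.21 (log2, SE; edgeR adjusted p of 0.96), with a 95% interval of 0.723-fold to 1.33-fold. Thumpd1 differed by 0.06 ± 0.19 (edgeR adjusted p of 0.915). Of all genes 0.846% were called here, and 0 of these 2. In the presence of IFN-γ the inhibitor's difference for Nat10 was -0.02 ± 0.21 (edgeR adjusted p of 0.976) and for Thumpd1 0.29 ± 0.19 (edgeR adjusted p of 0.46), where 0.364% of all genes were called.

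Averaged over both levels of IFN-γ, the Remodelin effect is the most precise of the comparisons, since it draws on 6 libraries against 6. Nat10 differed by -0.02 ± 0.15 (log2, SE; edgeR adjusted p of 0.936), with a 95% interval of 0.793-fold to 1.22-fold. Thumpd1 differed by 0.17 ± 0.14 (edgeR adjusted p of 0.424). Neither was among the 7.04% of genes called. The interval bounds what these libraries allow for Nat10 and does not show that its level was equal.

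Thumpd1 stood farthest from zero in the cells given both agents. Against control its level was 0.47 ± 0.19 higher on the log2 scale (SE), with a 95% interval of 0.06 to 0.87, an unadjusted p of 0.0257 and an edgeR adjusted p of 0.119. Against Remodelin alone it was 0.41 ± 0.19 higher, with an unadjusted p of 0.046 and an edgeR adjusted p of 0.641. Neither difference passed the threshold, although the libraries did not overlap in either. The share of all genes called was 4.49% against control and 0% against Remodelin alone, where DESeq2 called 1. An unadjusted p under 0.05 was common among the 13474 genes. It was reached by 4011 of them (29.8%) against control and by 1043 (7.74%) against Remodelin alone.

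Nat10 in the same cells differed by -0.19 ± 0.21 from control (edgeR adjusted p of 0.566) and by -0.16 ± 0.21 from Remodelin alone (edgeR adjusted p of 0.82). The interaction, which asks whether the inhibitor's difference depended on IFN-γ, was 0.01 ± 0.29 for Nat10 (edgeR adjusted p of 1.0) and 0.23 ± 0.27 for Thumpd1, with 0.00742% of all genes called. In the authors' deposited table the log2 fold changes for both agents against control were -0.17 for Nat10 and 0.41 for Thumpd1, the latter with an adjusted p of 0.133. None of the authors' deposited comparisons of these 2 genes had an adjusted p under 0.05.

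**Figure D2:**
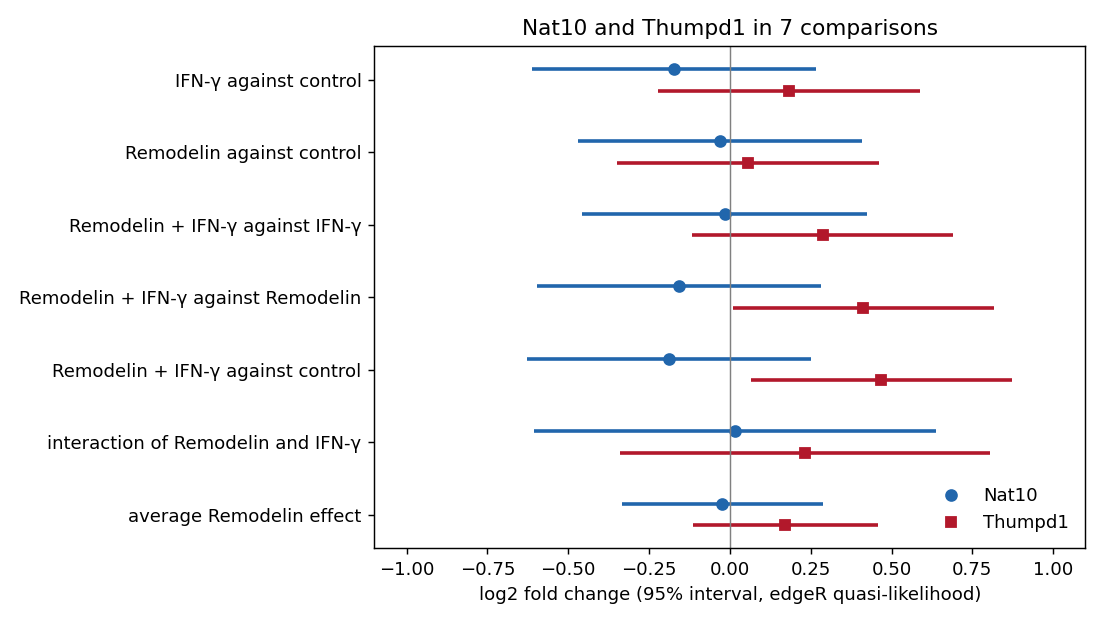
Fitted log2 fold change of Nat10 (circles) and Thumpd1 (squares) in each of the 7 comparisons, with 95% intervals from edgeR's quasi-likelihood fit. The Nat10 intervals all include 0; the Thumpd1 intervals for both agents against control (0.06 to 0.87) and against Remodelin alone lie above 0, and neither comparison passed after adjustment.

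The levels of both genes moved with the GC trend of the libraries. The longest transcript of Thumpd1 has 47.3% GC and that of Nat10 51.4%, where the median over the genes kept was 49.8%. Those values are at the 36.6 and 58.5 percentiles, so neither gene is extreme in GC content. Across the 12 libraries the trend correlated with Thumpd1 log2 CPM at a Pearson r of -0.84 and a Spearman rho of -0.82 (permutation p of 0.00075 and 0.00176, two-sided; 0.0045 and 0.0106 adjusted over 6 relations). Without the 2 libraries farthest from the median trend, Remodelin with IFN-γ 1 and control 3, r was -0.86. On deviations from group means, r was -0.81 (adjusted permutation p of 0.00636), so the relation was also seen among libraries of the same group. That permutation moved deviations freely between groups, although those of a group sum to 0, so its p may be too small.

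For Nat10 the same trend gave r = 0.62 and rho = 0.52 (permutation p of 0.0312 and 0.0882; 0.0468 and 0.176 adjusted). On deviations from group means r was 0.64, and it was 0.27 without Remodelin 3 and Remodelin with IFN-γ 1, so the relation within groups rests on those libraries. Such relations were common: the median gene had an absolute r of 0.511 with the trend, 38.2% of genes exceeded Nat10 and 9.37% exceeded Thumpd1. With the trend removed, the Thumpd1 difference between both agents and control was 0.30 on the log2 scale in place of 0.47, with an edgeR adjusted p of 0.334. The part of the trend in the Thumpd1 difference was not tested beyond that value.

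**Figure D3:**
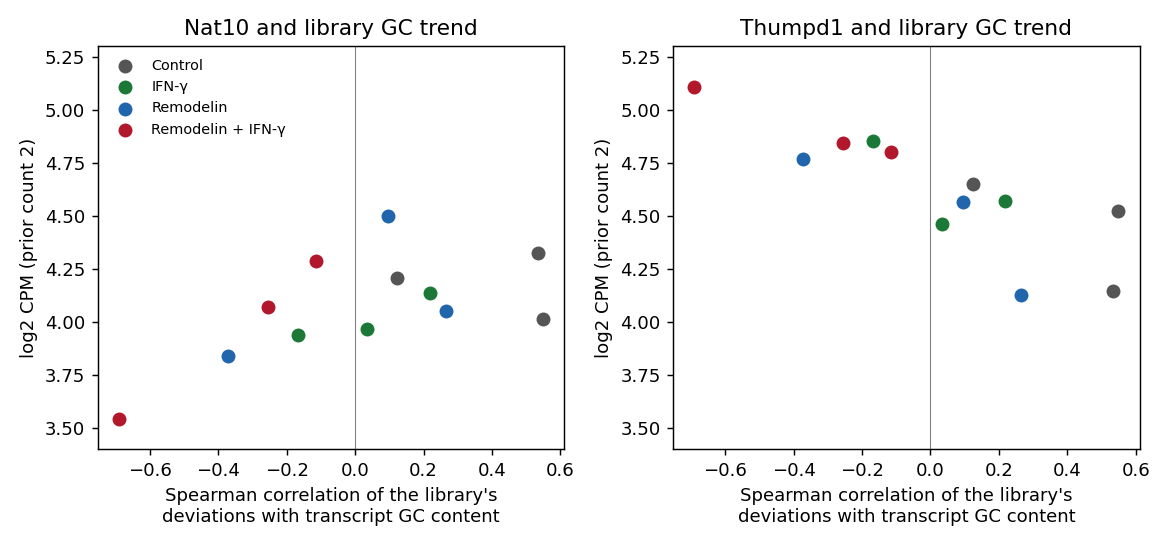
Log2 CPM (prior count of 2) of Nat10 (left) and Thumpd1 (right) against the GC trend of each library, the Spearman correlation of its gene-wise deviations with transcript GC content. Points are the 12 libraries, coloured by group; Thumpd1 falls along the trend (r = -0.84) and Nat10 rises less closely (r = 0.62).

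Nat10 and Thumpd1 did not show a firm relation with each other. Across the 12 libraries their log2 CPM gave r = -0.50 and rho = -0.38 (permutation p of 0.0945 and 0.219, two-sided; 0.113 and 0.219 adjusted over 6 relations). Without Remodelin with IFN-γ 1 and Remodelin 2, the libraries farthest from the Nat10 median, r was -0.29. On deviations from group means r was -0.40 (adjusted permutation p of 0.196, with the limit given above), and with the GC trend removed it was -0.45. The libraries share normalisation, and within a group they share treatment.

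The genes whose levels followed each member most closely were taken from 8834 genes with a mean of at least 5 CPM, by Pearson r of log2 CPM over the 12 libraries. For Nat10 the leading 5 were Pias3 (r = 0.97), an E3 SUMO ligase that inhibits STAT3, the septin gene Septin9 (0.94), the ubiquilin gene Ubqln4 (0.94), Rexo1 (0.93) and the cytokine-activated transcription factor Stat5b (0.93). For Thumpd1 they were Suclg2, a succinyl-CoA ligase subunit (0.97), Samhd1, a dNTP hydrolase (0.97), the endosomal GTPase gene Rab21 (0.96), Spop, a substrate adaptor of a cullin ubiquitin ligase (0.95), and Rnf149 (0.95). High values were frequent, and 2.5% of the genes exceeded 0.83 for Nat10 and 0.85 for Thumpd1. With the GC trend removed, r fell to 0.61 for Rexo1 and 0.47 for Rab21, and stayed between 0.74 and 0.91 for the other 8.

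The relatives of Thumpd1 were read beside it. THUMPD3 and THUMPD2 carry the same RNA-binding THUMP domain and are methyltransferases that work with TRMT112. Thumpd3 stood at 43.6 CPM in Remodelin with IFN-γ library 1 and between 14.7 and 21.2 CPM in the other 11 libraries. Its difference between both agents and control was 0.74 ± 0.26 (log2, SE; edgeR adjusted p of 0.0823), and without that library it was 0.23. With the GC trend removed it was 0.15, while DESeq2 called it at an adjusted p of 0.0461. Thumpd3 overlaps Gt(ROSA)26Sor on the opposite strand and Gm22591 on its own, so its counts are uncertain.

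Thumpd2 was low, at 2.17 to 4.93 CPM, with an average Remodelin effect of 0.41 ± 0.20 (edgeR adjusted p of 0.208). Trmt112, the partner subunit, had a mean of 72.1 CPM and an effect of 0.05 ± 0.11 (edgeR adjusted p of 0.78), or 0.23 with the GC trend removed (edgeR adjusted p of 0.166), and it overlaps Esrra and Prdx5. Fbl, the methyltransferase of nucleolar box C/D particles, had a mean of 92.5 CPM and an effect of -0.25 ± 0.10 (edgeR adjusted p of 0.133). Sirt7, which encodes a nucleolar deacetylase reported to act on NAT10, differed by -0.37 ± 0.11 (edgeR adjusted p of 0.0563). In DESeq2 its adjusted p was 0.0471, and with the GC trend removed the difference was -0.19 (edgeR adjusted p of 0.212). Snord13 had 0 counts in all 12 libraries, where a floor of 3 counts equals 0.152 to 0.192 CPM, and the libraries may hold few RNAs of its size.

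Genes of related functions were read in 10 lists that hold 199 genes of the table besides the 2 members, of which 191 passed the count filter. The lists were chosen with earlier results of these data known. In the average Remodelin effect edgeR called 12 of them, 3 higher and 9 lower, which is 6.28% and close to the 7.04% of all genes (2.24% higher and 4.8% lower). For both agents against control it called 9, 6 higher and 3 lower, or 4.71% against 4.49% of all genes (2.44% higher and 2.05% lower). For Remodelin against control it called 2, both lower, which is 1.05% against 0.653% of all genes lower. In IFN-γ against control, in both agents against either agent alone and in the interaction it called 0. There 6, 26, 15 and 1 of the 191 had an unadjusted p under 0.05. Of these, 26 refers to the comparison with IFN-γ alone and 15 to that with Remodelin alone. The shares of all genes in the same order were 5.37%, 16.2%, 7.74% and 2.3%. DESeq2 called 5 in the comparison with IFN-γ alone and 0 in the other 3, and limma-voom called 0 in all 4. The median over all list genes in the average effect was -0.01, against 0.03 over all genes tested.

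In the list drawn up for the supply of acetyl-CoA, the donor of the acetyl group, and for related enzymes, 2 of 14 genes fell and 0 rose in the average effect. That is 14.3%, against 7.04% of all genes, and the median log2 difference over the list was -0.11. Acat2, which joins acetyl-CoA units into acetoacetyl-CoA, had 32.7 ± 6.66 CPM in control and 31.1 ± 2.18 with IFN-γ, against 15.4 ± 4.08 with Remodelin and 17.1 ± 0.445 with both (SD, n = 3). It fell by 0.98 on the log2 scale (SE 0.14, edgeR adjusted p of 0.00057). Aacs, the acetoacetyl-CoA synthetase, fell by 0.62 (SE 0.11, edgeR adjusted p of 0.00297), from 42.6 ± 5.41 and 39.5 ± 1.45 CPM without the inhibitor to 26.7 ± 2.03 and 26.7 ± 3.08 with it. Both are enzymes of acetoacetyl-CoA, and neither makes acetyl-CoA from citrate or acetate. Both were also the 2 list genes called for Remodelin against control, at -1.09 for Acat2 and -0.68 for Aacs. The Acat2 call was lost in 4 and the Aacs call in 11 of 12 fits without 1 library, with edgeR adjusted p up to 0.261. Across all genes, the calls in those fits ran from 20 to 216, against 114 with every library.

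Among 35 tRNA methyltransferase genes 3 fell and 0 rose in the average effect, a share of 8.57% near the 7.04% of all genes, and the list median was 0.04. Trmt61a, the catalytic subunit of the tRNA methyltransferase for adenosine in the T loop, fell by 0.57 (SE 0.12, edgeR adjusted p of 0.00885). Wdr4, the partner of METTL1 in tRNA guanosine methylation, fell by 0.53, and Trmt2a, a tRNA uridine methyltransferase, fell by 0.44. Of the 23 wobble uridine and threonylcarbamoyl genes 1 rose and 1 fell (8.7%), with a median of -0.01. Urm1, the ubiquitin-like sulfur carrier of wobble thiolation, fell by 0.62 (SE 0.13, edgeR adjusted p of 0.00892), and Trit1, a tRNA isopentenyltransferase, was 0.54 higher.

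Among 20 pseudouridine, dihydrouridine, inosine and queuosine genes 1 rose and 0 fell (5%, against 7.04% of all genes), with a median of -0.05. The gene that rose was the dihydrouridine synthase gene Dus4l at 0.89 higher, from a low level of 0.872 ± 0.376 CPM in control (SD, n = 3). In rRNA modification (19 genes), m6A and m5C (22), protein acetyltransferases (24), sirtuins and histone deacetylases (18) and the THUMP group (4), edgeR called 0 in the average effect and so did limma-voom. DESeq2 called 3 genes of these lists, Mettl5, Igf2bp2 and Sirt7. Unadjusted p-values under 0.05 numbered 4, 4, 5, 2 and 0 in these lists in the same order, where 26.1% of all genes had one. Their medians were -0.05, 0.18, 0.02, -0.08 and 0.17. The most abundant gene of each was Nhp2, Ybx1, Naa20, Sirt2 and Trmt112.

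Among 16 genes of proteins linked to NAT10 or to Remodelin, such as lamins, tubulins and p53 regulators, 1 rose and 3 fell in the average effect. That is 25%, against 7.04% of all genes, and the list median was -0.18. The alpha-tubulin gene Tuba1a fell by 0.75 (SE 0.13, edgeR adjusted p of 0.00311), from 125.8 ± 29.8 and 113.5 ± 10.3 CPM without the inhibitor to 72.5 ± 17.1 and 70.0 ± 3.49 with it (SD, n = 3). Near-identical tubulin genes can share reads, so its counts are uncertain. The lamin genes Lmnb1 and Lmna fell by 0.50 and 0.42, and Mdm2, the ubiquitin ligase of p53, was 0.63 higher. Mesothelial, neutrophil and B cell marker sums were lower in the same libraries as given above, and their part in these differences was not tested.

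Of the 12 list genes called in the average effect, 5 were still called whichever single library was left out, namely Acat2, Aacs, Tuba1a, Urm1 and Trmt61a. Across all genes, the calls in those fits ran from 298 to 1960, against 949 with every library. With the GC trend removed Trmt61a (-0.35), Lmna (-0.31), Lmnb1 (-0.39) and Dus4l (0.70) lost the call, and with GC and length trends removed Aacs stood at -0.41. In cells given both agents against control the 6 genes that rose were led by Trmt10c, a mitochondrial tRNA methyltransferase (1.25 higher on the log2 scale), Mettl5, an adenosine methyltransferase of ribosomal RNA (1.22), and Qtrt2, a subunit of the queuine-inserting enzyme (1.13). Dld, a subunit of pyruvate dehydrogenase, was 1.02 higher, Mdm2 0.84 and the prelamin protease gene Zmpste24 0.74. Acat2, Tuba1a and Aacs fell by 0.94, 0.84 and 0.68. All 9 of these calls were lost without control library 2, without control library 3 and without Remodelin with IFN-γ library 1, with edgeR adjusted p up to 0.224. Across all genes, the calls in this comparison fell from 605 to 16 without control library 2, so the loss was not particular to these genes. The 3 libraries lie at the ends of the GC trend, and the part of the trend in the losses was not tested. Without Remodelin with IFN-γ library 1 Dld was 0.51. With the GC trend removed, 8 of the 9 calls were lost, all but Acat2, and the differences were 0.77 for Trmt10c, 0.73 for Mettl5, 0.46 for Dld, 0.26 for Zmpste24 and -0.35 for Aacs.

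**Figure D4:**
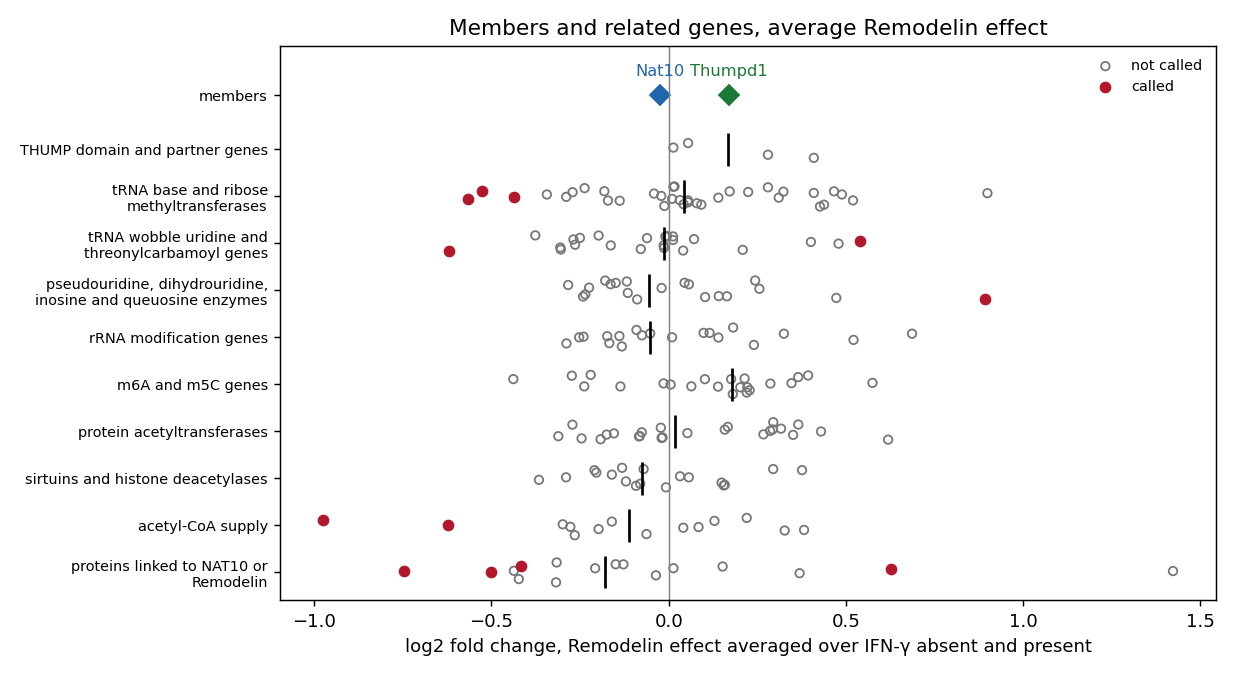
Average Remodelin effect (log2 fold change) of Nat10 and Thumpd1 (diamonds) and of the tested genes of each of the 10 lists (circles), with list medians as vertical bars. Filled circles are genes called by edgeR; Nat10 (-0.02) and Thumpd1 (0.17) lie among genes that were not called, and Acat2 (-0.98) lies lowest.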

How the data were processed

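The table that the authors deposited gives raw counts, FPKM values and a length for each gene and, per the file headers, log2 fold changes and p-values of the authors' own comparisons. The submitters' processing notes name featureCounts 1.5.0-p3, HISAT2 2.0.5 and CASAVA 1.8, without roles. The tool of the comparisons, the genome build, annotation and strand setting: not given in the sources used here. Groups and library numbers came from the sample titles.

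The main test was edgeR's quasi-likelihood test (version 4.0.16, R 4.3.3) on the counts, with TMM scaling and edgeR's default filter by group, which kept 13474 of 55586 genes, in 1 fit over 12 libraries. Benjamini-Hochberg adjustment ran over the genes kept, and genes were called under 0.05. The fit was checked on simulated counts. Of simulated 1.41-fold changes it recovered 7% to 11% in the pairwise comparisons, 1% in the interaction and 42% in the average Remodelin effect. For 2-fold changes these shares were 74% to 85%, 33% and 99%. Most changes of 1.41-fold would thus be missed. The average Remodelin effect is the mean of its differences without and with IFN-γ. CPM is scaled to the TMM-adjusted total, log2 CPM used a prior count of 2, and library totals of 15917454 to 19418665 counts put 3 counts at 0.152 to 0.192 CPM, a floor that covers counting error only. FPKM values were used as deposited for levels per length.

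Named genes were the 2 members, the 5 genes most correlated with each, list genes called in any comparison, the most abundant list genes, and Thumpd2, Thumpd3, Snord13, Sirt7, Trmt112 and Fbl. Members and lists were chosen with earlier results of these data known. GC content came from the longest GENCODE M21 transcript, for 13339 of 13474 genes. The promoter came from RefSeq on GRCm38.p6, where 1 of the 2 members had an entry starting at the start of its GENCODE M21 model. Alternatives were DESeq2 1.42.0 and limma-voom (limma 3.58.1) in place of edgeR, DESeq2 size factors, testing without a count filter or with at least 50 reads in 3 libraries, a replicate block, the compared groups alone, removal of GC or GC and length trends, and each library left out in turn. Removing the GC trend from the correlation was added after seeing the data.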

Additional observations from a re-analysis of the deposited data

How the results depend on the processing

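Neither Nat10 nor Thumpd1 was called under any alternative. Of 145 alternative values each, Nat10 kept its direction in 110 and changed sign in 35, with a lowest adjusted p of 0.29, and Thumpd1 kept it in 142 and changed sign in 3, with a lowest adjusted p of 0.0742. The log2 differences that changed sign were between -0.19 and 0.06 as reported, and the cause was not tested. The Nat10 difference for Remodelin against control became 0.00084 with DESeq2 size factors, 0.0128 without the count filter, 0.0206 with the GC trend removed, 0.0393 with GC and length trends removed and 0.00085 in DESeq2. Its interaction became -0.0118 with DESeq2 size factors and in DESeq2, -0.0168 without the filter and -0.0292 with GC and length trends removed. Its average Remodelin effect became 0.0044 without the filter, 0.0255 with GC removed and 0.0247 with GC and length removed, and its difference between both agents and IFN-γ became 0.0304 and 0.0101 with those removals. Thumpd1 for Remodelin against control became -0.0084 with the GC trend removed.

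With each library left out in turn, Nat10 ran from -0.24 to 0.11 for Remodelin against control, from -0.19 to 0.19 for both agents against IFN-γ, from -0.33 to 0.054 against Remodelin, from -0.36 to 0.019 against control, from -0.13 to 0.10 in the average effect and from -0.16 to 0.22 in the interaction. Thumpd1 for Remodelin against control ran from -0.092 to 0.21, and for both agents against control from 0.34 (without control 2) to 0.58. The correlation of the 2 genes ran from -0.61 (without Remodelin 1, permutation p of 0.0461) to -0.23 (without Remodelin with IFN-γ 1). Trmt112 in the average effect ran from -0.024 to 0.12 in these fits, and was 0.23 with the GC trend removed and 0.19 with GC and length trends removed (adjusted p of 0.065).

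The labels do not say whether library numbers pair the samples. Correlations of same-numbered deviations ran from -0.547 to 0.261. They were not set against those of differently numbered libraries, so they cannot decide it. With a replicate block the Thumpd1 difference between both agents and control was 0.48 (adjusted p of 0.142), and the genes called numbered 1, 58, 24, 0, 161, 1 and 578 against 2, 114, 49, 0, 605, 1 and 949 without it, in the order IFN-γ, Remodelin, both against IFN-γ, both against Remodelin, both against control, interaction and average. Over all alternatives these counts ran from 1 to 52, 20 to 408, 10 to 358, 0 to 6, 16 to 1797, 0 to 19 and 298 to 1960. Called list genes numbered 0 to 29 against 9 for both agents against control and 5 to 32 against 12 in the average effect. Depth limits the low genes Dus4l and Thumpd2.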
